A study of Mus musculus with 2 samples.

Results

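A set of 38 genes of the smooth muscle contractile machinery was followed in mouse ureters in which the secretion of WNT ligands was blocked. The members were listed by name for their known roles in contraction, with earlier results of these data known but with no measured value in the rule, and they are 38 of the 29924 gene names on the array. Ureters were taken from newborn (P0) wildtype NMRI mice and were kept in culture for 18 h with 5 µM IWP-2, an inhibitor of the acyltransferase Porcupine that WNT ligands need to leave the cell, or with the solvent DMSO at a dilution of 1 in 1000. Each of 2 two-colour Agilent arrays carried RNA of 1 control and 1 treated pool, every pool made of 5 to 6 ureters. Replicate 1 used ureters of female pups and replicate 2 those of male pups with the dyes exchanged, so that sex and dye orientation cannot be told apart. Whole ureters were used, and smooth muscle cells therefore shared each pool with urothelium, lamina propria, adventitia, vessels and nerves. For every gene below, a lower number of cells of a type and less RNA per cell cannot be told apart.

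Smooth muscle cells contract when calcium and calmodulin switch on myosin light chain kinase, and phosphorylated myosin then pulls on actin filaments that are tied to adhesion plaques at the membrane, to dense bodies and to intermediate filaments. In the ureter this machinery drives the peristaltic waves that carry urine to the bladder. Many of the genes involved are controlled by serum response factor (SRF) with its partner myocardin, which act at CArG boxes in promoters and enhancers.

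The 4 pools gave signal for most of the set. The array software called 37 of the 38 members well above background on most of their spots in all 4 channels, and *Pln* in none. *Ryr2* is among the 37 although its signal lay at the floor set for the values, 15, in all 4 channels. A gene entered the limma test when the mean signal of its brightest probe was above 100 in at least 1 condition, which 14336 genes and 35 members did. *Axin2*, a direct target of canonical WNT signaling, gave 181 (control) and 42.2 (treated) in replicate 1, and 154 and 46.7 in replicate 2. The log2 ratios given below are those of the treated over the control pool of the same array, and a mean is over both arrays.

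*Csrp2*, a LIM domain gene, was the only contractile gene that passed the test. By limma with Benjamini-Hochberg adjustment at 0.05, 1 of the 35 tested members was lower (0.886% of all tested genes were lower) and 0 were higher (0.363% of all tested genes), where 1.25% of all tested genes were called in either direction. At an unadjusted limma p of 0.05, 2 members were lower (6.64% of all tested genes) and 5 were higher (6.27%). The mean log2 ratios of the members ran from -0.76 to 0.32 with a median of 0.07, against a median of -0.01 over all tested genes. The mean lay within 0.2 of 0 for 27 of the 35 members (77.1%), compared with 88.1% of all tested genes. For 33 members the 95% interval from limma lay within a 1.5-fold change in either direction, as it did for 96.7% of all tested genes. The 2 members whose interval reached beyond that size were *Csrp2* and *Cald1*. With 2 arrays, these intervals lean on the variances of all tested genes, and the SEs moved with the filter on signal. Without that filter, the SE went from 0.093 to 0.144 for *Actg2* and from 0.067 to 0.022 for *Csrp2*. The intervals therefore hold for this filter only. The control and treated channels did not overlap for 1 lower member, *Csrp2* (17.0% of all tested genes did not overlap and were lower), and for 3 higher ones, *Actg2*, *Tagln* and *Pcp4* (14.0%). These channels were normalized within arrays only, and after quantile normalization between arrays those of *Actg2* overlapped.

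**Figure D1:**
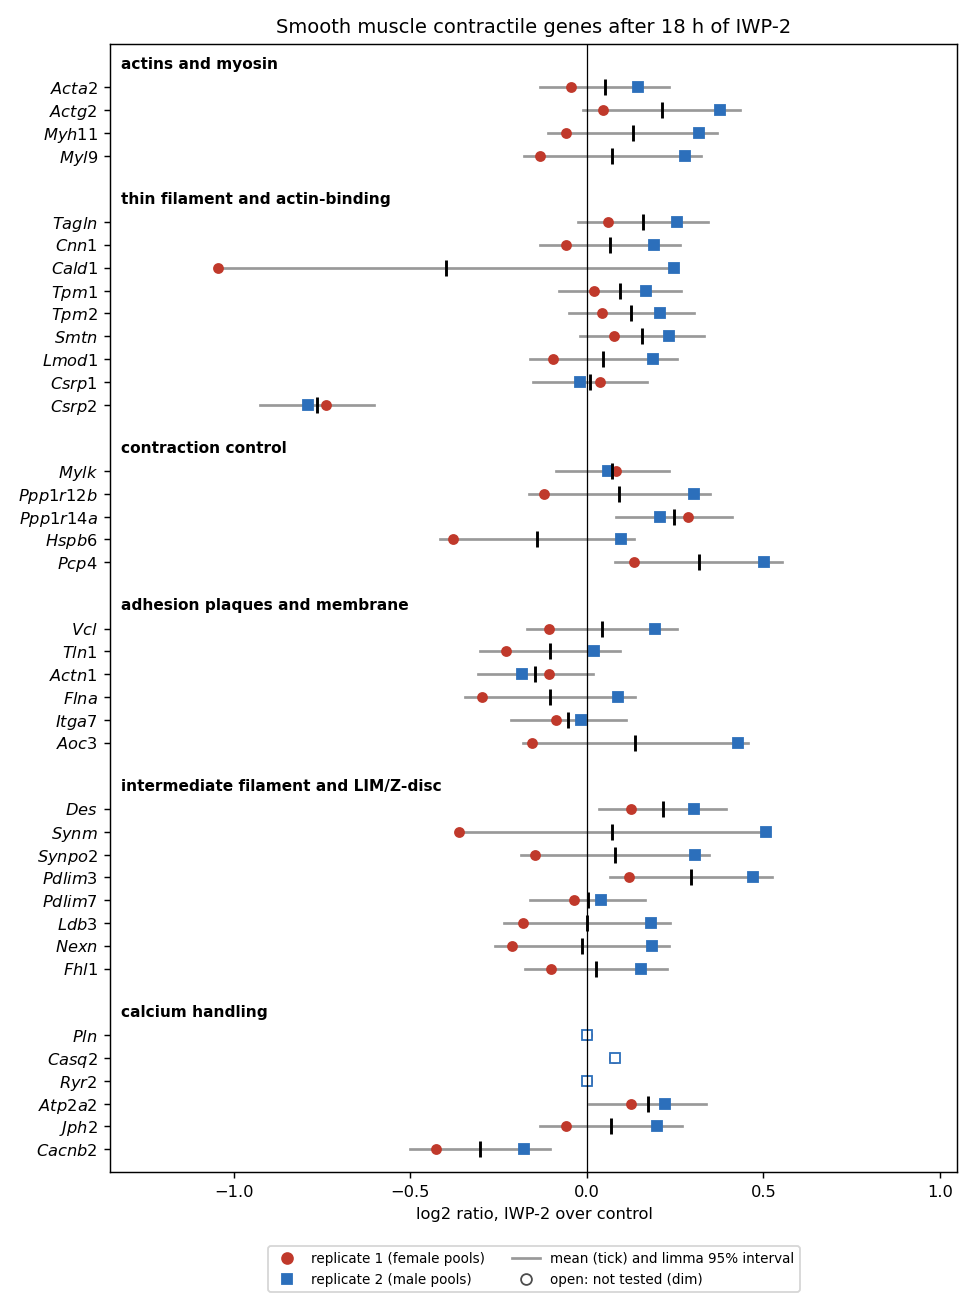
Log2 ratio of IWP-2 over control (horizontal axis) for each of the 38 contractile genes, grouped by role, with a circle for replicate 1 (female pools), a square for replicate 2 (male pools), a tick for the mean and a line for the limma 95% interval; open symbols mark the 3 members that were too dim to be tested. Both arrays of *Csrp2* lie near -0.76, whereas *Cald1* lies at -1.05 in replicate 1 and at 0.25 in replicate 2.

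*Csrp2*, which codes for a LIM domain protein associated with actin filaments in smooth muscle, was the member that fell. It was read by a probe at chr10:110376366-110376425 (mm9, plus strand). The control pool gave 15265 and the treated pool 9143 in replicate 1, and they gave 12581 and 7276 in replicate 2. Both treated pools lay below both control pools. The log2 ratios of -0.74 and -0.79 gave a mean of -0.76 (SE 0.067, 95% interval -0.93 to -0.60, n = 2 arrays; limma adjusted p = 0.00809), which is 0.589 of the control level. The call was lost without the filter on signal (limma adjusted p = 0.461), with the filter set at well above background (0.482) and with the pairing of the pools ignored (0.534), while the mean stayed between -0.79 and -0.72 in the 10 alternatives that gave a test. The separate spots of the probe ran from -0.77 to -0.71 on the first array and from -0.82 to -0.76 on the second. Only 41 of the 14336 tested genes, *Csrp2* included, had a mean as low or lower. *Csrp2* was also the only member past the study's kind of filter, a control above 100 combined with at least a 1.5-fold difference on both arrays, which 51 of 14051 genes (0.363%) passed downwards and 11 (0.0783%) upwards.

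The close relative *Csrp1*, picked here for its kinship with *Csrp2* after its values were seen, was not called. It gave 11840 and 12157 in control and treated pool of replicate 1, and 11511 and 11348 in replicate 2. The channels overlapped, and the mean log2 ratio was 0.01 (95% interval -0.15 to 0.17; limma adjusted p = 0.996). The difference between these 2 genes was not tested.

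The actins and myosin, the force-generating core, had means between 0.05 and 0.21, and 0 of 4 passed the test. *Acta2*, the smooth muscle alpha-actin by which these cells are usually recognized, gave 30498 in the control and 29577 in the treated pool of replicate 1, and 28482 and 31483 in replicate 2. The treated pool was thus slightly lower on one array and slightly higher on the other, and the mean log2 ratio was 0.05 (SE 0.076, 95% interval -0.13 to 0.23; limma adjusted p = 0.950). *Actg2*, the gamma-actin of visceral smooth muscle, gave 14032 and 14498 in replicate 1 and 11068 and 14369 in replicate 2. Both treated pools lay above both controls, but by little in replicate 1, with log2 ratios of 0.05 and 0.38 (mean 0.21, SE 0.093, 95% interval -0.01 to 0.43; limma adjusted p = 0.424). After quantile normalization between arrays, however, the treated pool of replicate 2 (14200) lay below the control pool of replicate 1 (14240). *Myh11*, the smooth muscle myosin heavy chain and a marker of mature cells, gave 7268 and 6974 in replicate 1 and 5055 and 6303 in replicate 2. Its ratios had opposite signs, -0.06 and 0.32 (mean 0.13, SE 0.10; limma adjusted p = 0.775). The regulatory light chain gene *Myl9* did likewise, at -0.13 and 0.28.

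Among the 9 thin filament and actin-binding genes, *Csrp2* was the only one called. *Tagln*, an actin-binding protein that appears early in smooth muscle differentiation, gave 20256 and 21132 in replicate 1 and 18533 and 22122 in replicate 2. Its treated pools were both above its controls, with log2 ratios of 0.06 and 0.26 (mean 0.16, SE 0.077; limma adjusted p = 0.494). *Cnn1*, the calponin that holds back the myosin ATPase, gave 17181 and 16491 in replicate 1 and 13509 and 15425 in replicate 2. These channels overlapped, and the mean log2 ratio was 0.07 (SE 0.083; limma adjusted p = 0.917). The tropomyosin genes *Tpm1* and *Tpm2*, the actin-associated gene *Smtn* and the filament nucleator gene *Lmod1* had mean log2 ratios of 0.09, 0.13, 0.16 and 0.05, with none called.

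*Cald1*, which codes for caldesmon, a protein that restrains the actin-activated myosin, had ratios of opposite sign on the 2 arrays, as did *Synm* below; 0.893% of all tested genes had opposite signs with 0.2 or more on each array. The control pool gave 1679 and the treated pool 813 in replicate 1, and they gave 784 and 930 in replicate 2. The channel of the female control pool stood apart from the other 3, which lay close together. It still did so after quantile normalization between arrays (1692 against 819, 781 and 927), a step that left the ratios within an array unchanged. Each pool was read in 1 dye only, so a pool and its dye cannot be told apart. The log2 ratios were -1.05 and 0.25, and the mean of -0.40 carried an SE of 0.26 (95% interval -1.03 to 0.23; limma adjusted p = 0.703). A second *Cald1* probe gave 1446 and 708 in replicate 1 and 678 and 816 in replicate 2, or log2 ratios of -1.03 and 0.27, so the split did not belong to a single probe. Only 32 of the tested genes had a log2 ratio of -1 or lower in replicate 1, and 3 of these were above 0 in replicate 2.

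**Figure D2:**
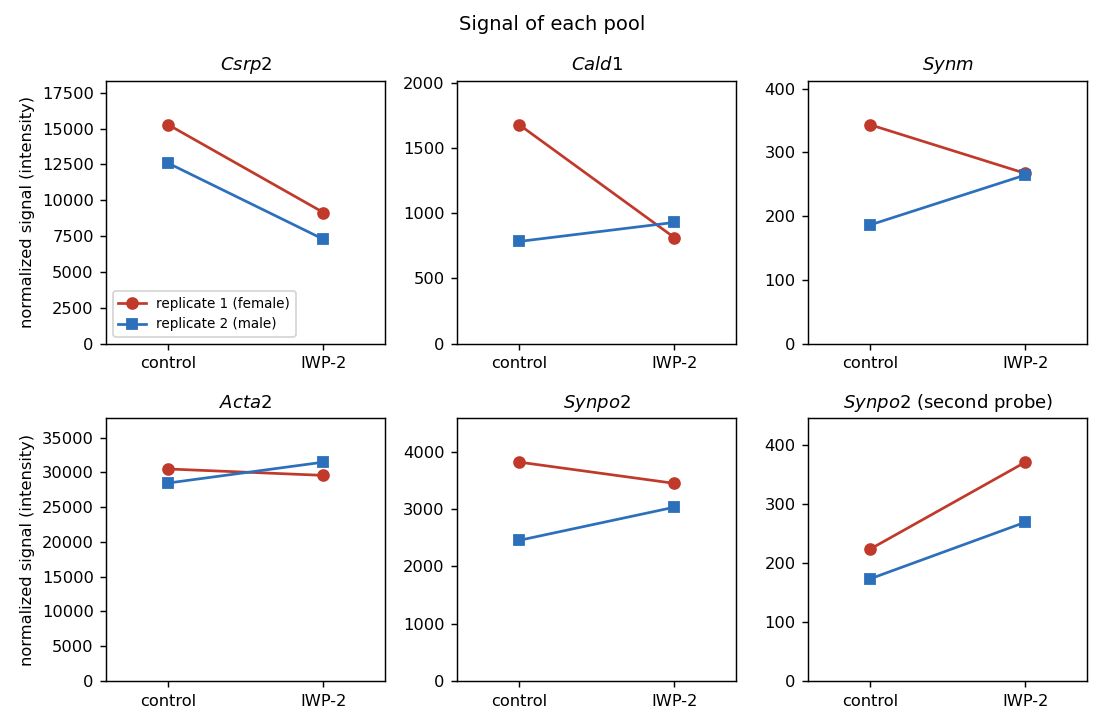
Normalized signal (intensity, linear axis from 0) of the control and the IWP-2 pool on each array, joined by a line for replicate 1 (female, circles) and replicate 2 (male, squares), for *Csrp2*, *Cald1*, *Synm*, *Acta2* and both brighter probes of *Synpo2*. Both lines fall for *Csrp2*, from 15265 to 9143 and from 12581 to 7276, and both rise for the second *Synpo2* probe, while the lines of *Cald1* and *Synm* cross or meet.

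The genes grouped under the control of contraction had a median of 0.09, and 0 of 5 passed the test. *Ppp1r14a*, which codes for the myosin phosphatase inhibitor CPI-17, gave 3436 and 4189 in replicate 1 and 2775 and 3201 in replicate 2. The treated pool was higher on each array by a like amount, although the channels of the 2 arrays overlapped, and the log2 ratios of 0.29 and 0.21 gave a mean of 0.25 (SE 0.068, 95% interval 0.08 to 0.41; limma adjusted p = 0.176). *Pcp4*, a small regulator of calmodulin, had the highest mean of the whole set. It gave 14337 and 15714 in replicate 1 and 10888 and 15417 in replicate 2, with both treated pools above both controls. The mean log2 ratio was 0.32 (SE 0.098, 95% interval 0.08 to 0.55), and it missed the threshold (limma adjusted p = 0.222). *Hspb6*, the small heat shock protein HSP20 of relaxing smooth muscle, gave 9620 and 7402 in replicate 1 and 6942 and 7421 in replicate 2. Here the female control was again the highest channel, and the log2 ratios of -0.38 and 0.10 differed in sign (mean -0.14, SE 0.11; limma adjusted p = 0.795). The kinase gene *Mylk* and the phosphatase subunit gene *Ppp1r12b* had mean log2 ratios of 0.07 and 0.09.

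The 6 genes of the adhesion plaques and the membrane were the role with the lowest median, -0.08, and 0 of 6 passed the test. *Actn1*, an alpha-actinin that crosslinks actin at the plaques, gave 367 and 341 in replicate 1 and 296 and 261 in replicate 2. The treated pool was lower on each array while the channels of the 2 arrays overlapped, and the mean log2 ratio was -0.15 (SE 0.068; limma adjusted p = 0.472). The other 5 genes had mean log2 ratios of -0.11 for the talin gene *Tln1*, -0.10 for the filamin gene *Flna*, -0.05 for the integrin gene *Itga7*, 0.04 for the vinculin gene *Vcl* and 0.14 for the amine oxidase gene *Aoc3*. All 6 were below 0 in replicate 1, and 4 were above 0 in replicate 2.

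The intermediate filament and LIM or Z-disc genes had a median of 0.05, with 0 of 8 called. *Pdlim3*, a PDZ and LIM domain protein that binds alpha-actinin, gave 5173 and 5617 in replicate 1 and 3676 and 5098 in replicate 2. Its treated pool was the higher one on each array, and the mean log2 ratio was 0.30 (SE 0.096; limma adjusted p = 0.243). *Des*, the muscle intermediate filament protein desmin, gave 1173 and 1279 in replicate 1 and 799 and 987 in replicate 2. It too was higher in the treated pool of each array, by 0.12 and 0.30 (mean 0.21, SE 0.075; limma adjusted p = 0.283). The channels of both genes overlapped between arrays. *Synm*, the desmin partner synemin, gave 343 and 267 in replicate 1 and 186 and 265 in replicate 2. Its treated pools were alike and its control pools were not, so the log2 ratios were -0.36 and 0.51 (mean 0.07; limma adjusted p = 0.984). *Pdlim7*, *Ldb3*, *Nexn* and *Fhl1* had mean log2 ratios between -0.01 and 0.03.

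*Synpo2*, which codes for the actin-bundling protein myopodin, gave different answers by probe. The brightest probe, at chr3:122779459-122779518 (mm9, minus strand), gave 3815 and 3445 in replicate 1 and 2452 and 3029 in replicate 2. Its log2 ratios of -0.15 and 0.31 differed in sign and its mean was 0.08 (limma adjusted p = 0.936). A dimmer probe of the same gene at chr3:122782094-122782153 gave 224 and 372 in replicate 1 and 173 and 270 in replicate 2. Both treated pools lay above both controls there, with log2 ratios of 0.73 and 0.64 (mean 0.68, SE 0.070; limma adjusted p = 0.0187 in a fit of all 18403 probes above 100, which called 42 probes higher and 100 lower). Which transcripts each probe reads was not analysed here.

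Of the 15 members with more than 1 probe, 9 had more than 1 above the signal limit of 100, and the probe means of 7 of these lay within 0.2 of each other. The exceptions were *Synpo2* and *Atp2a2*. All 5 *Tpm1* probes had means between -0.06 and 0.09. The other *Synm* probes above 100 gave log2 ratios of -0.06 and 0.25, and of -0.13 and 0.20, thus the same order of the arrays with a smaller gap.

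**Figure D3:**
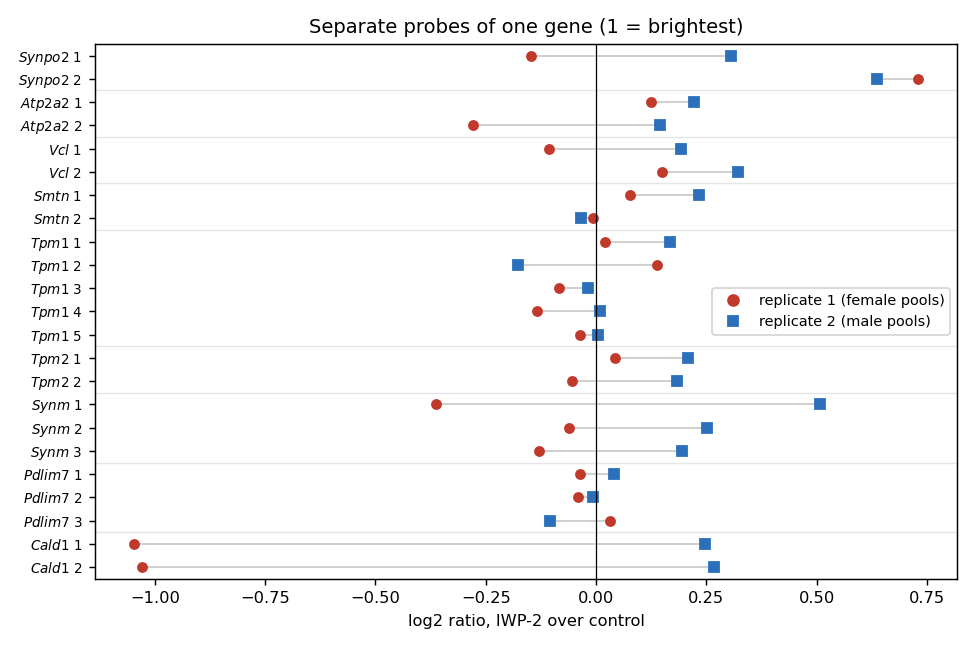
Log2 ratio of IWP-2 over control (horizontal axis) for each probe above 100 of the 9 contractile genes that had more than 1, with a circle for replicate 1 (female) and a square for replicate 2 (male), numbered from the brightest probe. The second probe of *Synpo2* lies at 0.73 and 0.64 whereas the brightest lies at -0.15 and 0.31, and the *Cald1* probes lie on top of each other.

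Of the 6 calcium handling genes, 3 could be tested and 0 were called. *Cacnb2*, a beta subunit of voltage-gated calcium channels, gave 309 and 230 in replicate 1 and 215 and 190 in replicate 2. The treated pool was lower on each array although the channels overlapped, and the mean log2 ratio was -0.30 (SE 0.083, 95% interval -0.50 to -0.10; limma adjusted p = 0.169). *Atp2a2*, the SERCA2 pump that refills the calcium store, gave 2333 and 2543 in replicate 1 and 1909 and 2226 in replicate 2. Its mean log2 ratio was 0.17 (limma adjusted p = 0.362), whereas a second probe gave -0.28 and 0.14. The junctophilin gene *Jph2* had a mean of 0.07. The members that were too dim to test were *Pln*, the SERCA inhibitor phospholamban, *Ryr2*, a calcium release channel, and *Casq2*, the calsequestrin of the store. *Pln* and *Ryr2* lay at the floor of 15 in all 4 channels, so they have no ratio. *Casq2* gave 22.7 and 23.9 in replicate 1 and 20.8 and 22.0 in replicate 2.

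The 2 arrays differed in the same direction for most of the set. The log2 ratio was higher in replicate 2, the male pools, for 30 of the 35 tested members, compared with 49.1% of all tested genes. It was below 0 in replicate 1 and above 0 in replicate 2 for 19 members (22.3% of all tested genes), above 0 in both for 11 (25.7%) and below 0 in both for 4 (29.1%). The median over the members was -0.09 in replicate 1 and 0.19 in replicate 2, while the median over all tested genes was below 0.01 in size in both. A log2 ratio of 0.2 or more was found for 16 members in replicate 2 (45.7%, compared with 5.74% of all tested genes) and for 1, *Ppp1r14a*, in replicate 1. A log2 ratio of -0.2 or less was found for 8 members in replicate 1 (22.9%, compared with 9.81% of all tested genes). With 1 array of each kind, the difference between them was not tested.

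Summed over the 38 members, the control pool gave 282796 and the treated pool 268135 in replicate 1, and they gave 231798 and 260353 in replicate 2. The male control pool was the lowest channel and the female control pool the highest, and the treated pools lay in between. Cell type markers differed between the arrays as well. All 14 urothelial markers had a lower log2 ratio in replicate 2 than in replicate 1, with medians of 0.07 and 0.30 and summed signals of 162954 (control) and 202355 (treated) in replicate 1, and of 196440 and 202251 in replicate 2. None of the 14 was called, and 7 were higher at an unadjusted limma p of 0.05 (6.27% of all tested genes). The 12 fibrocyte markers of lamina propria and adventitia had medians of -0.14 in replicate 1 and -0.03 in replicate 2 (summed signals 141677 and 123572, and 124969 and 124135). Their part in the results for the contractile genes was not tested.

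**Figure D4:**
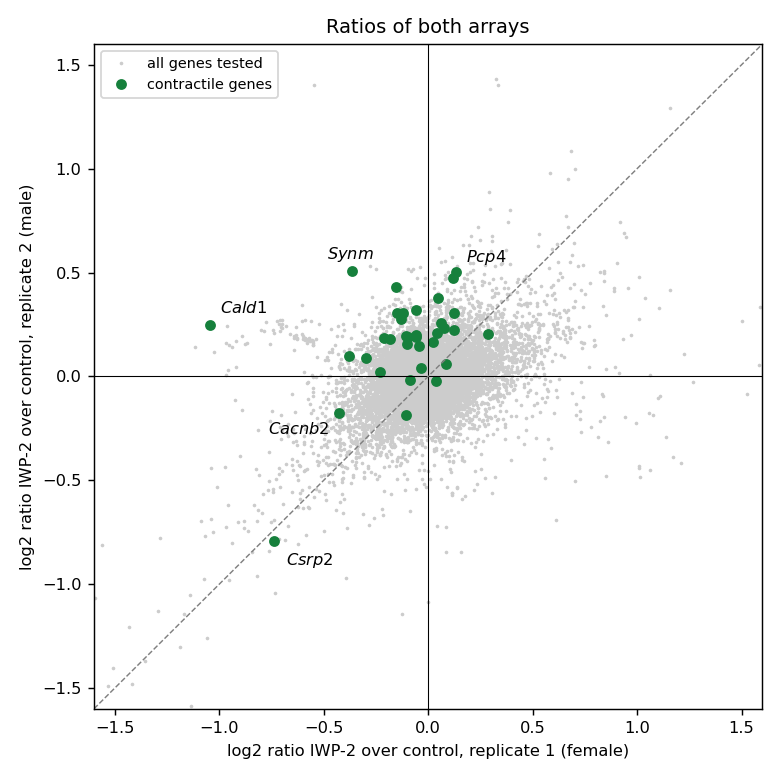
Log2 ratio of IWP-2 over control in replicate 1 (female, horizontal axis) and replicate 2 (male, vertical axis) for all 14336 tested genes (grey) and the 35 tested contractile genes (green), with equal ratios on the dashed line and 21 genes beyond the plotted range of 1.6 on either side. Of the green points, 30 lie above the dashed line, and *Csrp2* lies close to it at the lower left.

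Of the fibrocyte markers, *Aldh1a2*, a retinoic acid synthesizing enzyme of the lamina propria, fell from 1688 to 995 in replicate 1 and from 1456 to 1026 in replicate 2 (mean log2 ratio -0.63; limma adjusted p = 0.0281). Of 6 pericyte markers, 5 were tested, and *Rgs5* rose from 3696 to 5274 and from 4372 to 5802 (mean 0.46; limma adjusted p = 0.0396), while the other 4 had means from -0.30 to -0.07. The summed pericyte signal was 14650 and 14610 in replicate 1 and 13313 and 14440 in replicate 2. None of the tested markers of endothelium (7), leukocytes (5 of 6) and nerve (6 of 7) was called. Striated muscle shares several contractile genes with smooth muscle. Of its 15 markers, 6 were tested and 0 were called. At an unadjusted limma p of 0.05, 2 were higher, *Actc1* and *Tnni2* (6.27% of all tested genes). The list summed to 24909 and 25632 in replicate 1 and to 19693 and 23675 in replicate 2. *Actc1*, an actin gene also active in developing smooth muscle, made up most of each sum, so the sums do not measure striated muscle alone. *Actc1* gave 16621 and 17982 in replicate 1 and 13677 and 16853 in replicate 2. The fast troponin gene *Tnni2* gave 573 and 768 in replicate 1 and 695 and 849 in replicate 2 (mean log2 ratio 0.36; limma adjusted p = 0.0895). The other 4 tested markers were the skeletal actin gene *Acta1*, the muscle creatine kinase gene *Ckm*, *Myh6* and *Tnnt3*, with means of 0.01, 0.01, -0.16 and 0.07. *Ckm* is not particular to striated muscle here, as the study uses its protein to mark late smooth muscle cells of the ureter. *Mb*, the myosin genes *Myh1*, *Myh2* and *Myh3* and the myogenic factor genes *Myod1* and *Myog* lay at the floor of 15 in all channels. The part of striated muscle in the results for the contractile genes was not tested.

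The transcription factors and cofactors that control smooth muscle genes were compared in the same way, as a list of 14 genes that were all tested. None was called, and 5 were higher and 0 lower at an unadjusted limma p of 0.05 (6.27% and 6.64% of all tested genes). Their median was 0.05, with -0.03 in replicate 1 and 0.19 in replicate 2, and 13 of 14 had the higher ratio in replicate 2. *Foxf1*, a forkhead factor of visceral mesenchyme, had the largest mean of the list and gave 5188 and 5966 in replicate 1 and 3902 and 5690 in replicate 2 (mean 0.37; limma adjusted p = 0.149). *Tshz3*, a factor that ureter smooth muscle needs to differentiate, gave 2154 and 1275 in replicate 1 and 1090 and 1213 in replicate 2. As for *Cald1*, its female control channel stood apart from the other 3, and the mean log2 ratio of -0.30 had an SE of 0.19 (limma adjusted p = 0.686).

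Of 42 further genes of the contractile and adhesion apparatus that lie outside the set, 40 were tested and 0 were called. Their median was 0.01, with -0.08 in replicate 1 and 0.05 in replicate 2, and 30 of 40 had the higher ratio in replicate 2. Among the tested genes, the largest means were those of *Ppp1r12a*, the targeting subunit of myosin phosphatase, at 0.32 (5608 and 6880 in replicate 1, 4887 and 6194 in replicate 2; limma adjusted p = 0.103), and of the integrin gene *Itga8*, at -0.20 (698 and 594, 524 and 467; limma adjusted p = 0.264).

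The promoters of the members were searched for the CArG box, the SRF motif by which this gene set is best known. The RefSeq table (GRCm38.p6) of windows from 250 bases before to 50 bases after a start held 38 windows of 30 members. It did not list *Csrp2*, *Actg2*, *Nexn*, *Atp2a2*, *Itga7*, *Aoc3*, *Tagln* and *Myh11*. A CArG box was counted only where the letters matched CCWWWWWWGG exactly, with W for A or T. Strand was disregarded because this pattern reads the same on both. Such a box lay in 5 of the 38 windows (13.2%) and in 1.63% of all 32851 windows. By gene, it lay in 4 of the 30 members, compared with 1.81% of 27025 genes, because the 2 windows of *Ldb3* overlap and hold the same box. Boxes beyond the windows were not searched for. The stretches around the boxes are shown, 5′ to 3′ along the strand of the gene and with the box in capitals. These are the members whose windows carry an exact match.
*Fhl1*, chrX:56779551-56779620, plus strand: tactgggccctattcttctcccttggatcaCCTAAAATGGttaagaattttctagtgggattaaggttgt
*Ldb3*, chr14:34588677-34588746, minus strand: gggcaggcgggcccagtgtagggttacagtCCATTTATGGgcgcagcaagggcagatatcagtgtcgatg
*Myl9*, chr2:156775273-156775342, plus strand: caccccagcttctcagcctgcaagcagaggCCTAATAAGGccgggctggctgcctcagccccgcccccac
*Vcl*, chr14:20929148-20929210, plus strand: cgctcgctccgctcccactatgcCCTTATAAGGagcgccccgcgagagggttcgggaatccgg

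The 4 members with these boxes had mean log2 ratios from 0.00 to 0.07. The 23 tested members with a window but no exact box had means from -0.40 to 0.32 with a median of 0.07. Near matches were not counted, among them ccctatatgg and ccttgtttgg in the *Acta2* window, so a member without an exact box can still hold a variant of it. The core letters CTTTGA of the TCF/LEF motif, through which canonical WNT signaling reaches its targets, were searched on both strands and lay in 4 of the 38 windows (10.5%, against 16.0% of all windows), those of *Cacnb2*, *Casq2*, *Flna* and *Hspb6*. A match of letters is a description of the sequence and not a bound site.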

How the data were processed

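The authors deposited scanner files whose processed intensity values had been background-subtracted and dye-normalized by Feature Extraction (12.2.0.7 per the file headers, 10.7.3.1 per the labels). The deposited log10 ratios were used only to check directions, and matched the processed signals within 0.001 for 82.8% and 83.1% of the spots. The deposited series table holds a score per probe, the authors' signed fold change with 1 decimal, and served as an alternative. Channels were assigned from the labels.

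Control spots (17263 per array) and flagged spots (3.32% and 3.22%) were left out, and 0 spots were saturated. Loess in limma 3.58.1 (R 4.3.3) was applied within arrays, the up to 4 spots of a probe were averaged, and values were floored at 15 and turned to log2. Each gene was read by its brightest probe. The arrays' log2 ratios were tested against 0 with lmFit and eBayes (1 residual degree of freedom) and Benjamini-Hochberg adjustment. The pools of an array are paired by construction. Both arrays came from 1 slide and 1 scan. The number of arrays limits the precision, and the median SD between spots was 0.029 and 0.025. Signals of different probes were summed over lists, and their levels were not ranked against each other. Probe positions are from the array files (mm9); exon or UTR position was not analysed here. The fit was also run on simulated data with the same noise for all probes, which checks the code and does not bear on the calls or their dependence on the filter.

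The members and all lists were chosen with earlier results of these data known. Pool values are given for members called, past the 1.5-fold filter, among the 5 largest mean rises or falls, not tested or moving 0.2 or more in opposite directions, for *Acta2*, *Actg2*, *Myh11*, *Tagln* and *Cnn1*, and, of the other lists, for genes called or with the 2 largest changes among the tested genes of a list. *Csrp1*, *Synpo2* and *Atp2a2* were added after their values were seen, and of the marker lists other than striated muscle only the genes called are named, as a departure from this rule.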

Additional observations from a re-analysis of the deposited data

Results flagged for a closer look

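In 2 contractile genes the arrays moved in opposite directions by 0.2 or more each, as 0.893% of all tested genes did. For *Cald1* the log2 ratio of the male array lay 1.29 above that of the female array, a gap that 4 of the 14336 tested genes reached or exceeded. For *Synm* it lay 0.87 above, which 38 tested genes reached or exceeded. Sex and dye orientation cannot be told apart here, and with 1 array each the difference was not tested.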

How the results depend on the processing

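Of 12 alternatives, 10 allowed a test. *Csrp2* stayed lower in all of them, at -0.79 to -0.72, and was called in 7 (limma adjusted p 0.00118 to 0.534 over all 10). The number of lower members fell to 0 without the filter on signal (adjusted p of *Csrp2* 0.461) and with probes well above background in all channels (0.482), where 0 of all genes were called, and without the replicate block, with the pairing of the pools ignored (0.534), where 8 genes were called lower and 0 higher. The number of higher members rose to 2 in the authors' table, *Tpm1* (0.14) and *Ppp1r14a* (0.26), whose folds rounded to 1 decimal are equal on both arrays. By single arrays, the 1.5-fold filter held 1 to 2 lower members (the second was *Cald1*), and the median ranged from -0.09 to 0.19. The calls over all genes, 127 lower and 52 higher, became 248 and 154 with normexp, 108 and 85 with median centring, 83 and 25 with probe means, 85 and 32 without loess and 698 and 623 in the authors' table. A p that missed the threshold with 2 arrays does not show that a gene was unchanged.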
